A study of Mus musculus with 6 samples.

Results

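Kinesins are motor proteins that walk along microtubules or take them apart. In dividing cells one set of them builds the spindle, moves chromosomes and completes cytokinesis, and its genes are transcribed in G2 and M phase. Neurons do not divide and use another set to carry vesicles, mitochondria and receptors along axons and dendrites, so that a culture that passes from progenitors to neurons holds both sets. The kinesin genes described here are the protein-coding genes of the deposited count table whose GENCODE M21 symbol is Kif followed by a digit, or Kifc1, Kifc2 or Kifc3. The rule found 42 genes among 48526. Of these, 41 encode kinesin motor proteins, and the last, Kif1bp, encodes a protein that binds kinesins and holds no motor. The low-count filter kept 40 of the 42.

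RNA came from neural progenitor cells made from mouse embryonic stem cells, 3 libraries from a line labelled -/- for the transcription factor gene Dmrta2 and 3 from a Dmrta2 flox/flox line that served as the control. Each genotype is 1 line, so genotype and line cannot be told apart. Both were differentiated in N2B27 medium with LDN193189 (100 nM) and SB431542 (10 µM), which block BMP receptors and the receptors of activin and TGF-beta, until day 4, with XAV939 (1 µM), an inhibitor of Wnt signalling, until day 6, and with the Hedgehog pathway inhibitor cyclopamine (1 µM) from day 2 to day 10. Cells were replated on day 5 and collected for RNA on day 8, before the day 10 end that is given for cyclopamine. Total counts per library were 29031604 to 39646793 in the libraries labelled -/- and 24565560 to 29820515 in the flox/flox libraries.

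Facts of the whole table bear on what follows. Dmrta2 itself measured 409, 414 and 439 CPM (counts scaled to 1000000 per library) in -/- libraries A to C, against 85.2, 75.1 and 79.2 CPM in flox/flox libraries A to C. It was therefore higher in the libraries labelled -/-, and since the labels do not name the deleted part, this count says nothing of the deletion. Directions compare the libraries by these labels, -/- over flox/flox, and "rose" and "fell" mark genes with an adjusted p under 0.05 in edgeR's quasi-likelihood test over all 20549 genes tested. Chromosome 11 stood apart: the median log2 fold change of its 1589 tested genes was 0.49. Kif3a, Kif18b, Kif19a, Kif1c and the untested Kif2b lie there. Values of the 4 tested members are also given against an offset of 0.516 for that chromosome. The offset is the median log2 fold change of its genes less that of all other genes. It comes from these same data and was applied as a fixed value, without an error of its own. Of 8 listed markers of neural progenitors, 3 rose (Fabp7, Sox1 and Hes5), 4 fell (Sox2, Hes1, Vim and Nes) and Prom1 did not pass. Fabp7 stood at 389 ± 15.9 CPM in the libraries labelled -/- against 204 ± 51.8 CPM in the flox/flox libraries, and Sox2 at 181 ± 4.13 CPM in the libraries labelled -/- and 235 ± 3.79 CPM in the flox/flox libraries (SD, n = 3).

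Of the 40 kinesin genes tested, 10 rose and 3 fell. That is 32.5% past the threshold, where 35.3% of all genes tested passed, 17.9% higher and 17.4% lower. As a family, then, kinesin genes changed about as often as other genes did. Role by role the counts were these. Kinesins of neuronal transport rose in 7 of 13 members and fell in 1, with a median log2 fold change of 0.45, while kinesins of the spindle and cytokinesis rose in 1 of 12 and fell in 0, with a median of -0.05. The median over all genes tested was -0.003. Of the spindle class 1 member was lower at an unadjusted p under 0.05 in edgeR, and DESeq2 and limma-voom each called 0 lower, where they called 17.4% and 17.3% of all genes lower. For 19 of the 40 genes no library of one genotype reached the levels of the other, against 51.0% of all genes tested. At a stricter adjusted p of 0.01, 6 kinesin genes rose and 1 fell, against 9.69% and 9.22% of all genes tested. With the chromosome 11 offset 8 rose and 4 fell, against 14.3% and 18.3% of all genes. Leaving out flox/flox B lowered the number of neuronal members that rose to 4, at a background of 11.1% of genes called higher.

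**Figure D1:**
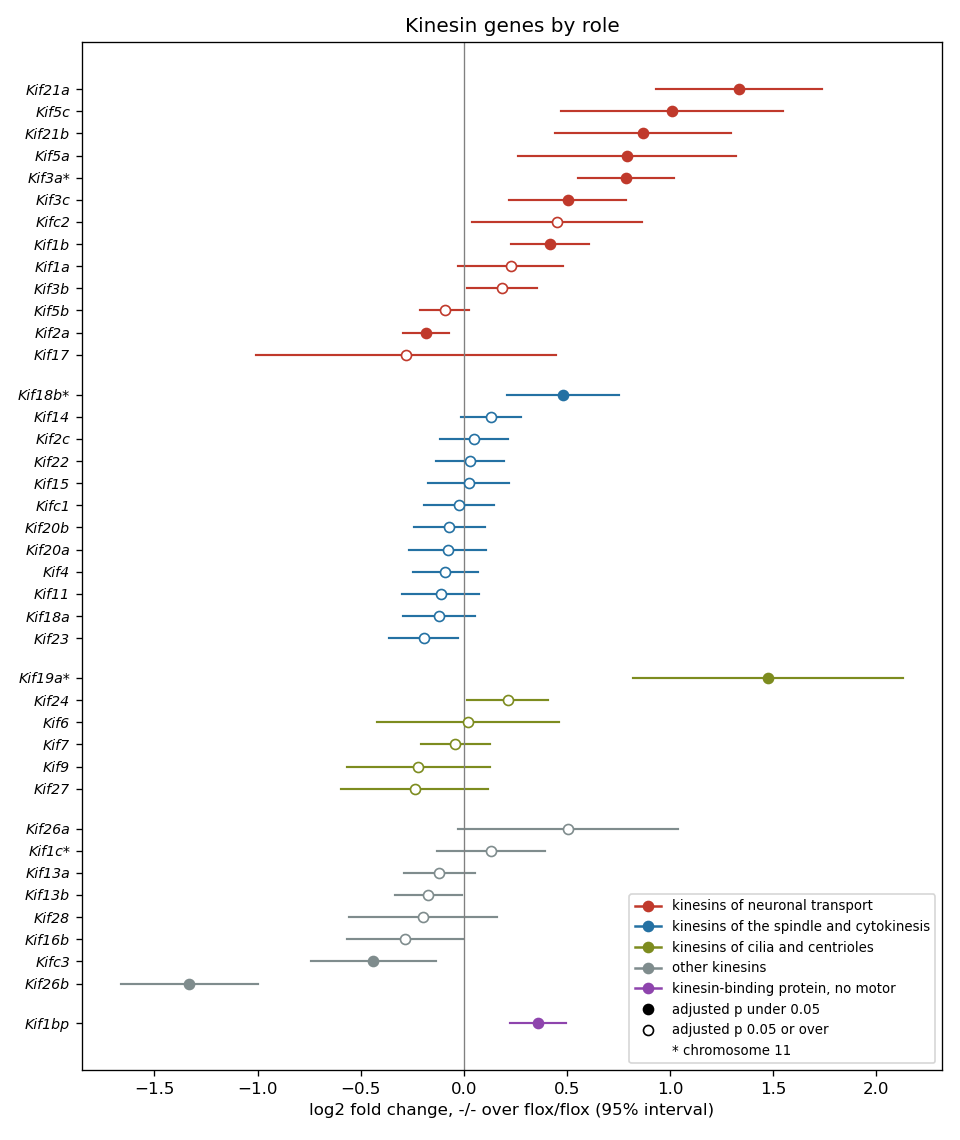
Log2 fold change of each tested kinesin gene, libraries labelled -/- over flox/flox libraries, with its 95% interval from edgeR, grouped by role. Filled points passed an adjusted p of 0.05, and an asterisk marks a gene on chromosome 11. The neuronal transport genes reach from -0.28 to 1.34 and the spindle genes from -0.19 to 0.48.

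Of the 12 tested spindle and cytokinesis genes, 11 did not pass the test between genotypes and 1, Kif18b, rose. Kif11, the motor that slides antiparallel spindle microtubules apart and keeps the spindle bipolar, and Kif23, the motor subunit of centralspindlin in the midzone, stand for the class. Their promoters are shown because of the letters of the cell cycle genes homology region (TTTGAA or TTCGAA). These letters occur in 10 of the 12 spindle members with a promoter in the RefSeq table, and in 19.2% of all 32851 promoters of that table. Those 12 are not the 12 tested genes, as they include the untested Kif2b and lack Kif20a. The windows of Kif2c, Kif14 and Kif4 lie wholly inside the gene as GENCODE places it, so they miss its outermost start. In them the letters begin at -103, -228 and 20 from the RefSeq start. The capitals mark matches, on either strand, to these letters, to CCAAT, the box read by NF-Y, to GGCGGGAA, a form of the E2F site, and to CAGATG or CAGCTG, E-boxes of the kind that proneural factors read. Each window runs from 250 bases before the annotated start to 50 after it, 5′ to 3′ on the gene's strand.
Kif11, chr19:37376132-37376431, plus strand: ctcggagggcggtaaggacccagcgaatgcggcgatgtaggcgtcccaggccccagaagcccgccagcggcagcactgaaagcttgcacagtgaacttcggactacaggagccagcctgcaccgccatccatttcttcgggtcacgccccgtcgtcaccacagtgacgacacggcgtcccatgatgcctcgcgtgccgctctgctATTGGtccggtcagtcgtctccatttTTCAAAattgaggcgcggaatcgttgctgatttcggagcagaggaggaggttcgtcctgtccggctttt
Kif23, chr9:61946750-61947049, minus strand: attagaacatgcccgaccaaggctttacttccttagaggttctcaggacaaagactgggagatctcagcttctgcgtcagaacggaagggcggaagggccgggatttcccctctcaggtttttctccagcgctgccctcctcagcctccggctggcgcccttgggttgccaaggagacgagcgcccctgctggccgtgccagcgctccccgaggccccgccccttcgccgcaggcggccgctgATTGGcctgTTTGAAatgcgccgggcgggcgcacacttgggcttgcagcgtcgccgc
In Kif11 the reverse form of TTTGAA begins at -19 and that of CCAAT at -45, and in Kif23 they lie at 3 (TTTGAA) and -7, counted from the start. A match of TTTGAA or TTCGAA beginning within 40 bases of the start, a window chosen after the positions were seen, was found in 8 of the 12 spindle promoters and in 4.5% of all promoters. The CCAAT letters were in 8 of the 12, against 37.4% of all promoters, GGCGGGAA in 0 against 2.19%, and CAGATG or CAGCTG in 2 against 30.6%. Kif2b, which was not tested, is among the 8 with CCAAT and the 2 with CAGATG or CAGCTG. All of these are matches of letters and not shown to be bound.

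Kif11 (ENSMUSG00000012443) measured 147, 137 and 119 CPM in -/- libraries A to C and 144, 145 and 148 CPM in flox/flox libraries A to C. The groups overlapped, since -/- A lay among the flox/flox libraries and -/- C stood lowest. Its log2 fold change was -0.11 ± 0.08 (SE), with a 95% interval from -0.30 to 0.07 and an adjusted p of 0.314 in edgeR. Kif23 (ENSMUSG00000032254) gave 80.4, 75.3 and 67.8 CPM in -/- libraries A to C against 85.6, 85.6 and 84.7 CPM in the flox/flox libraries. All 3 libraries labelled -/- were below every flox/flox library. The log2 difference of -0.19 ± 0.07 (SE) nevertheless missed the threshold, with an adjusted p of 0.0695 in edgeR. It passed without -/- A (0.0376), and its adjusted p ranged from there to 0.178 over the alternatives.

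Kif20a, which carries the Aurora B complex to the midzone, and Kif2c, a depolymerase that corrects faulty attachments at kinetochores, did not pass either. Unlike those of Kif23, their groups overlapped. For Kif20a (ENSMUSG00000003779) the levels were 152, 143 and 123 CPM in -/- libraries A to C and 149, 149 and 145 CPM in flox/flox libraries A to C. The libraries -/- A and flox/flox A and B were nearly level, and -/- C was lowest again. Its log2 difference was -0.08 ± 0.08 (adjusted p = 0.487, edgeR). Of its exonic bases 29.3% lie under exons of Cdc23, so the count may hold reads of that gene or lack some of its own. Kif2c (ENSMUSG00000028678) stood at 59.9, 54.7 and 51.4 CPM in -/- libraries A to C, against 54.4, 53.6 and 52.3 CPM in flox/flox libraries A to C. Here the -/- libraries spanned the flox/flox ones on both sides, with a difference of 0.05 ± 0.07 (log2, SE) and an adjusted p of 0.615 in edgeR.

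The member of the spindle class that rose was Kif18b, which trims the plus ends of astral microtubules. It measured 89.4, 86.4 and 66.0 CPM in -/- libraries A to C and 54.7, 59.3 and 59.5 CPM in flox/flox libraries A to C. The groups did not overlap, and -/- C came nearest to the controls. Kif18b rose by 0.48 ± 0.12 (log2, SE), 1.39-fold, with an adjusted p of 0.0160 in edgeR. It is on chromosome 11, and against the chromosome offset its difference was -0.04 (adjusted p = 0.844). The call was also lost without -/- B (0.0591), flox/flox A (0.0515) or flox/flox B (0.0513), and over all alternatives the adjusted p ran down to 0.00115.

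Other spindle members showed no call in either direction. Their log2 differences were -0.12 for Kif18a, which dampens chromosome movement at the metaphase plate, -0.09 for the chromokinesin Kif4, -0.07 for Kif20b, which acts in abscission, -0.02 for the minus-end motor Kifc1, 0.02 for Kif15, which can stand in for Kif11, 0.03 for the chromokinesin Kif22 and 0.13 for Kif14, which works in cytokinesis. Adding Kif11, Kif23, Kif20a and Kif2c makes 11 members that did not pass, and their 95% intervals all lay between -0.36 and 0.28 on the log2 scale. Only Kif14 of these 7 had groups that did not overlap, with 36.3 to 39.3 CPM in the libraries labelled -/- and 33.8 to 35.7 CPM in the flox/flox libraries. Kifc1 is uncertain because its near-identical copy Kifc5b, which is outside the rule, took 1251, 1241 and 759 reads in -/- libraries A to C and 854, 898 and 818 reads in flox/flox libraries A to C. Kif2b, another spindle depolymerase, had 0 reads in every library, which allows a level of up to 0.0757 to 0.122 CPM (3 reads per library, counting error only).

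Other proteins of the spindle work with these motors. Of 32 listed genes of spindle, chromosomes and cytokinesis, 6 rose, 3 fell and 23 did not pass, with a median of -0.04, where 17.9% of all genes tested were called higher and 17.4% lower. Of the 6 rises, 4 were on chromosome 11, the 3 with the smallest adjusted p being Top2a, a topoisomerase that untangles chromosomes (0.61 ± 0.07, log2, SE), Birc5, the survivin gene (0.51 ± 0.08), and Aurkb, the kinase carried by Kif20a (0.63 ± 0.11). With the chromosome offset 2 of the 32 rose and 3 fell, against 14.3% and 18.3% of all genes. The falls were Lin54, a subunit of the MuvB complex that reads the homology region (-0.20 ± 0.05), Cdk1, the mitotic kinase (-0.28 ± 0.07), and Ect2, the exchange factor that centralspindlin recruits (-0.31 ± 0.10). Adjusted p in edgeR was 0.00108 to 0.00393 for the 3 named rises and 0.0233 to 0.0396 for the falls. Cenpe, the kinetochore kinesin whose symbol keeps it outside the rule, was at 114 ± 8.41 CPM in the libraries labelled -/- and 114 ± 3.00 CPM in the flox/flox libraries (SD, n = 3).

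Neuronal transport kinesins were higher in the libraries labelled -/- in most members, by up to 2.52-fold. The promoters of Kif5c, Kif21a and Kif3c, which rose, are shown for comparison with those of Kif11 and Kif23, with the same letters in capitals.
Kif5c, chr2:49619036-49619335, plus strand: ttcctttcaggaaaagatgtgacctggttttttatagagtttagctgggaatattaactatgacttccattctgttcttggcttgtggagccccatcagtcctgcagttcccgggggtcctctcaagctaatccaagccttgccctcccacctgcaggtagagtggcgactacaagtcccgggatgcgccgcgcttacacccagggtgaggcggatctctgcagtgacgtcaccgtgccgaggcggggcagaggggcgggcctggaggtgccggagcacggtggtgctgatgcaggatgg
Kif21a, chr15:91049902-91050201, minus strand: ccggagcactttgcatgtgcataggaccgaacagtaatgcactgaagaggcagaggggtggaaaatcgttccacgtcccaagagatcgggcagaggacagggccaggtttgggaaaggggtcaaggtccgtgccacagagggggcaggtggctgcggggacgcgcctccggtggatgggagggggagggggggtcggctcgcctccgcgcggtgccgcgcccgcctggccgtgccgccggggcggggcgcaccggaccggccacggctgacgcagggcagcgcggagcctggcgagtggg
Kif3c, chr12:3364882-3365181, plus strand: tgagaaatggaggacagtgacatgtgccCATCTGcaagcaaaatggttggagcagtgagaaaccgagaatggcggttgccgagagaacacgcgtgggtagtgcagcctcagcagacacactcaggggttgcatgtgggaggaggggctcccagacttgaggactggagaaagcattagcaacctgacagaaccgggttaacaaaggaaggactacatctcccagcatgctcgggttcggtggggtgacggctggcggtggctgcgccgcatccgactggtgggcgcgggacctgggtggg
Of the 9 neuronal members with a promoter in the table, 0 held TTTGAA or TTCGAA, against 19.2% of all promoters. CCAAT was in 3 of the 9, against 37.4% of all promoters. CAGATG or CAGCTG was in 5, among them Kif3c at -222, against 30.6% of all promoters. Kif5a, Kif5b, Kif21b and Kifc2 had no promoter in the table. The counts are small and carry no test. Kif5c and Kif21a held none of the letters searched in these windows.

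Conventional kinesin, the main anterograde motor of axons, has its heavy chains from 3 genes, of which Kif5a and Kif5c are enriched in neurons and Kif5b is used by most cells. Kif5c (ENSMUSG00000026764) measured 371, 411 and 612 CPM in -/- libraries A to C and 178, 222 and 292 CPM in flox/flox libraries A to C. Every library labelled -/- was above every flox/flox library, and the C library was highest in each group. It rose by 1.01 ± 0.23 (log2, SE), 2.01-fold, with an adjusted p of 0.0130 in edgeR (0.0534 without flox/flox B, and down to 4.89e-05 under the other alternatives).

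Kif5a (ENSMUSG00000074657) gave 85.3, 106 and 148 CPM in -/- libraries A to C against 51.7, 62.5 and 81.7 CPM in flox/flox libraries A to C. The groups did not overlap but came close, with -/- A just above flox/flox C. Its rise of 0.79 ± 0.23 (log2, SE) had an adjusted p of 0.0308 in edgeR, lost without flox/flox A (0.0855), flox/flox B (0.0994), -/- B (0.0650) or -/- C (0.0648), and 8.74e-05 at the lowest. Kif5b, by contrast, stood at 187, 186 and 188 CPM in the libraries labelled -/- against 204, 204 and 191 CPM in its controls. Its difference of -0.09 ± 0.05 (log2, SE; 95% interval -0.21 to 0.03) did not pass (adjusted p = 0.196, edgeR).

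Divided by exon length, the Kif5 genes made up different shares of their sum. That length merges the exons of all annotated transcripts, whichever are used, so levels per length compare genes only roughly. Kif5c supplied 59.3%, 60.0% and 65.7% of it in -/- libraries A to C, against 43.1%, 47.5% and 53.5% in flox/flox libraries A to C. Kif5b supplied 26.8%, 24.2% and 18.1% in the libraries labelled -/- and 44.1%, 38.9% and 31.2% in the flox/flox libraries. Neither share overlapped between groups. Kif5a held 13.9% to 16.2% in the libraries labelled -/- and 12.8% to 15.3% in the flox/flox libraries, which overlapped. Shares carry no test, as each rests on the same 6 libraries as the tests of the single genes. In bulk RNA, fewer cells of a type and less RNA per cell cannot be told apart.

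**Figure D2:**
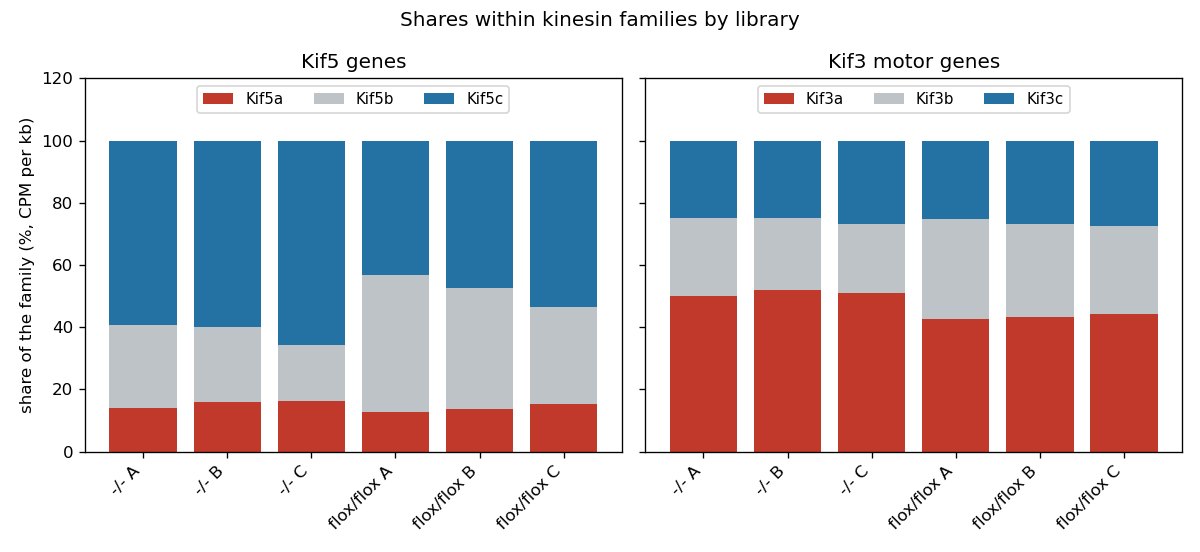
Share of each gene in the summed level of the Kif5 genes (left) and of the Kif3 motor genes (right), in percent of CPM per kilobase of merged exons, in each library. The Kif5b share is at most 26.8% in the libraries labelled -/- and at least 31.2% in the flox/flox libraries, and the Kif3a share is at least 50.1% in the libraries labelled -/- and at most 44.4% in the flox/flox libraries, a gap that the chromosome 11 offset for Kif3a removes.

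Heterotrimeric kinesin pairs Kif3a with Kif3b or, in neurons, with Kif3c, and also drives transport in cilia. Kif3c (ENSMUSG00000020668) measured 103, 109 and 139.8 CPM in -/- libraries A to C and 76.0, 83.3 and 88.4 CPM in flox/flox libraries A to C. The groups did not overlap, and -/- C was farthest from the controls. It rose 1.42-fold (0.50 ± 0.12, log2, SE) with an adjusted p of 0.0163 in edgeR, lost without flox/flox A (0.0523) or flox/flox B (0.0566) and down to 0.00133 under the others. Of its exonic bases 40.7% overlap exons of other genes, among them 1110002L01Rik, so the count may hold reads of those or lack some of its own.

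Kif3a measured 99.7, 109.6 and 129 CPM in -/- libraries A to C, against 62.2, 65.3 and 68.9 CPM in flox/flox libraries A to C. All libraries labelled -/- were well above the flox/flox ones. The rise was 0.79 ± 0.10 (log2, SE; adjusted p = 0.00130, edgeR), but Kif3a lies on chromosome 11, and against the offset 0.27 remained (adjusted p = 0.0747, the highest over its alternatives, the lowest being 1.48e-09). Kif3b, at 76.7 to 88.1 CPM in the libraries labelled -/- and 68.6 to 74.5 CPM in the flox/flox libraries, did not pass (0.19 ± 0.07, log2, SE; adjusted p = 0.0833, edgeR), although its groups did not overlap. Of the summed level per exon length of these 3 motor genes, Kif3a held 50.1% to 51.9% in the libraries labelled -/- and 42.5% to 44.4% in the flox/flox libraries. Its partners lie on other chromosomes, and with the offset taken from Kif3a, a step added after the data were seen, its share was 41.2% to 43.0% in the libraries labelled -/-. Kifap3, the non-motor subunit of the same complex, was at 82.6 ± 11.7 CPM in the libraries labelled -/- and 81.7 ± 4.72 CPM in the flox/flox libraries (SD, n = 3; adjusted p = 0.932, edgeR).

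Kif21a and Kif21b are kinesins that restrain the growth of microtubule ends and act in axons and dendrites. Kif21a (ENSMUSG00000022629) showed the largest rise of the neuronal class. It measured 356, 375 and 434 CPM in -/- libraries A to C and 115, 159 and 188 CPM in flox/flox libraries A to C. The lowest library labelled -/- was well above the highest flox/flox library. Kif21a rose 2.52-fold (1.34 ± 0.17, log2, SE), with an adjusted p of 0.00139 in edgeR and of at most 0.00951 under every alternative run. Kif21b (ENSMUSG00000041642) gave 191, 206 and 293 CPM in -/- libraries A to C, against 107, 121 and 149.6 CPM in flox/flox libraries A to C. The groups did not overlap, and again the C library was highest in each. It rose by 0.87 ± 0.18 (log2, SE; adjusted p = 0.00938, edgeR, and at most 0.0421 under every alternative run).

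Kif1a and Kif1b carry precursors of synaptic vesicles, and Kif1b also mitochondria. Kif1b (ENSMUSG00000063077) measured 690.1, 658 and 735 CPM in -/- libraries A to C and 465, 552 and 542 CPM in flox/flox libraries A to C. The groups did not overlap. It rose 1.34-fold (0.42 ± 0.08, log2, SE; adjusted p = 0.00662, edgeR, and at most 0.0187 under every alternative run). Kif1a (ENSMUSG00000014602) stood at 349, 369 and 459 CPM in -/- libraries A to C, against 357, 336 and 311 CPM in flox/flox libraries A to C. Here -/- A fell among the flox/flox libraries and only -/- C stood clearly above them. The difference of 0.23 ± 0.11 (log2, SE; 95% interval -0.03 to 0.48) did not pass, with an adjusted p of 0.147 in edgeR, and passed under none of the alternatives run (0.0752 to 0.286).

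The fall in the class was that of Kif2a, a depolymerase that trims axon branches and also works at spindle poles. It measured 97.3, 95.3 and 99.0 CPM in -/- libraries A to C and 110.2, 111 and 109.9 CPM in flox/flox libraries A to C, with groups that did not overlap and little spread in either. Kif2a fell by 0.18 on the log2 scale (SE 0.05, 1.13-fold; adjusted p = 0.0222, edgeR). The call was lost with no low-count filter (0.0853) and without any single library but -/- C (0.0561 to 0.119), and 0.0153 was its lowest adjusted p. Exons of Dimt1 cover 19.2% of the exonic bases of Kif2a, so the count may hold reads of Dimt1 or lack some of its own. Kifc2, a minus-end motor of dendrites, was at 10.6 to 16.5 CPM in the libraries labelled -/- and 8.58 to 10.8 CPM in the flox/flox libraries (0.45 ± 0.18, log2, SE; adjusted p = 0.0835, edgeR, 0.0257 without -/- A, and 0.0138 to 0.213 over the alternatives). Kif17, a dendritic motor of NMDA receptors, was at 1.22 to 1.65 CPM in the libraries labelled -/- and 1.22 to 2.60 CPM in the flox/flox libraries (-0.28 ± 0.31; adjusted p = 0.523, edgeR).

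**Figure D3:**
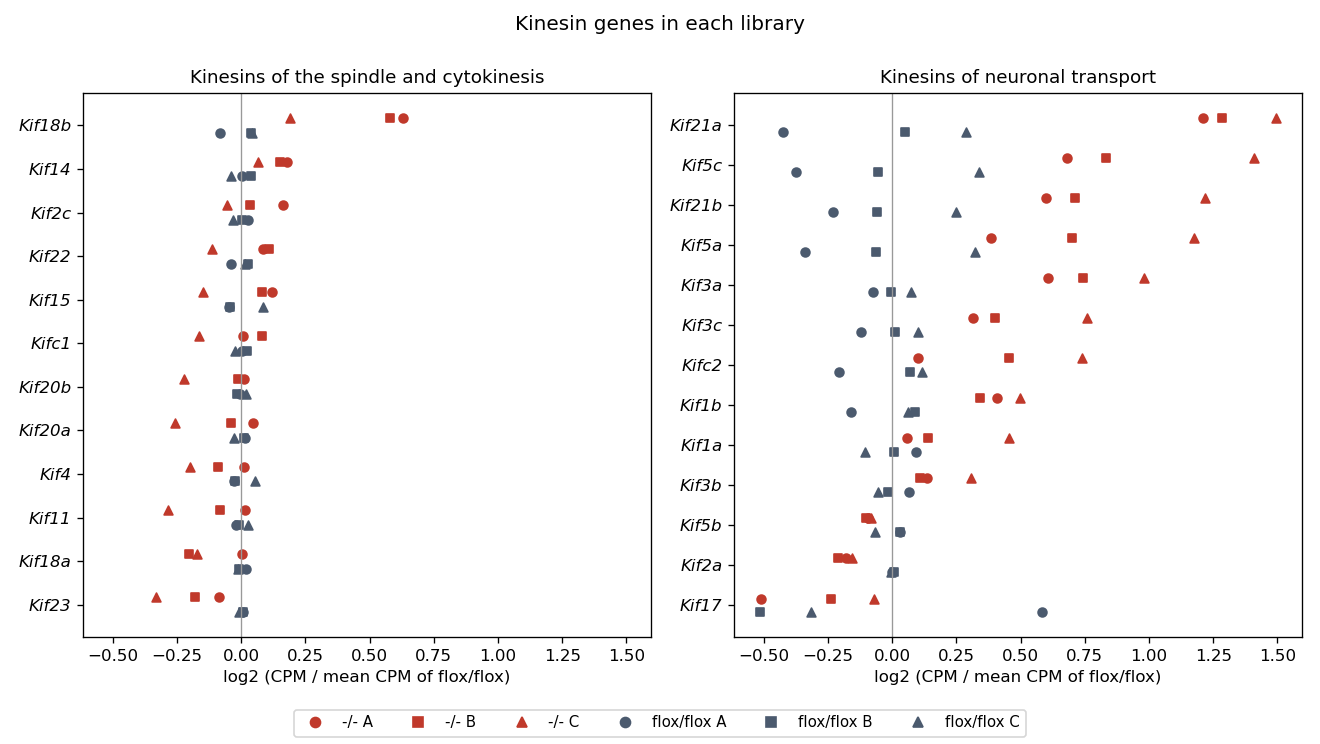
Level of each tested member of the spindle class (left) and the neuronal class (right) in every library, as log2 of its CPM over the mean of the flox/flox libraries. Symbols stand for the column letter. The triangle of -/- C is lowest of its group for 11 of 12 spindle genes and highest of its group for 13 of 13 neuronal genes. Such ranks were not counted over all genes tested.

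The libraries labelled -/- ranked in opposite order in the neuronal and the spindle class. Among the libraries labelled -/-, C was the highest for 13 of 13 neuronal members and the lowest for 11 of 12 spindle members, while A was the highest for 10 of 12 spindle members and the lowest for 9 of 13 neuronal members. Among the flox/flox libraries, A was the lowest for 8 of 13 neuronal members and C the highest for 7. For the 12 spindle members flox/flox C was the highest for 5 and the lowest for 6. Such ranks were not counted over all genes tested, so these counts have no background share. Across the table the chi-square per gene within a genotype was highest for -/- A and -/- C (30.3), followed by flox/flox A and C (26.1). It was taken on raw counts and grows with depth, and -/- A was the deepest library. It therefore does not show which pair differed most. Members of a class can vary together and are not replicates. Set against the flox/flox average, the mean log2 level of the neuronal class came to 0.31, 0.41 and 0.68 in -/- libraries A to C and -0.08, -0.01 and 0.09 in flox/flox libraries A to C. For the spindle class these values were 0.10, 0.04 and -0.14 in -/- libraries A to C and -0.01, 0.004 and 0.01 in flox/flox libraries A to C. Without -/- C the median of the spindle class changed sign, to 0.03.

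Neuron markers moved with the neuronal class. Of 12 listed markers, 11 rose and 0 fell in edgeR (0 lower at an unadjusted p under 0.05, and 0 lower by DESeq2 or limma-voom), and none was at 0 in any library, where 17.9% of all genes tested were called higher. With the chromosome 11 offset 9 of the 12 rose, and limma-voom called 10. All 4 listed markers of intermediate progenitors rose as well, with a median log2 fold change of 1.64. The summed level of the neuron markers was 3224 to 5288 CPM in the libraries labelled -/- and 1739 to 2670 CPM in the flox/flox libraries. Their mean log2 level was 0.67, 0.81 and 1.35 in -/- libraries A to C and -0.29, -0.03 and 0.32 in flox/flox libraries A to C, with -/- C highest and flox/flox A lowest as for the neuronal kinesins. Dcx, a microtubule protein of young neurons, was at 645 ± 191 CPM in the libraries labelled -/- and 246 ± 87.6 CPM in the flox/flox libraries (SD, n = 3). The part of the share of neurons and intermediate progenitors in the rises of kinesin genes was not tested. Partners of the spindle moved with the spindle class, at 0.13, 0.07 and -0.11 in -/- libraries A to C and -0.007, 0.02 and -0.01 in flox/flox libraries A to C.

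**Figure D4:**
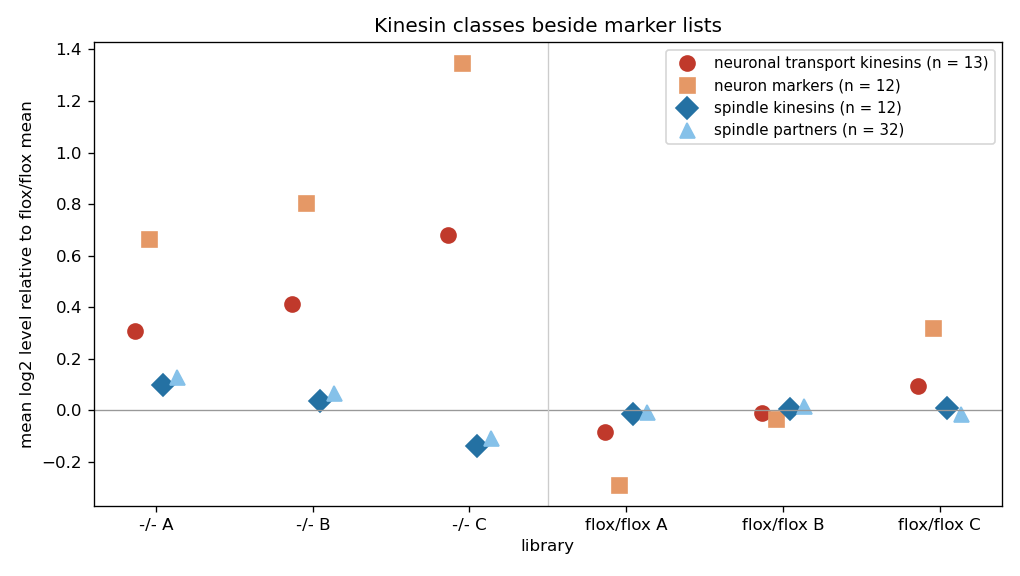
Mean log2 level of 4 gene lists in each library, relative to the mean of the flox/flox libraries (pseudocount 0.5 CPM). Neuronal kinesins and neuron markers are higher in all 3 libraries labelled -/- and highest in -/- C, at 0.68 and 1.35, while spindle kinesins and their partners stay between -0.14 and 0.13.

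Summed per exon length, the spindle members came to 183, 176 and 152 CPM per kilobase in -/- libraries A to C and to 168, 170.1 and 170.0 in flox/flox libraries A to C. The neuronal members came to 308, 325 and 403 CPM per kilobase in the libraries labelled -/- and to 210.0, 229.8 and 245 in the flox/flox libraries. The ratio of the spindle sum to the neuronal sum was 0.592, 0.542 and 0.377 in -/- libraries A to C, against 0.799, 0.740 and 0.693 in flox/flox libraries A to C. It was lower in every library labelled -/-. By level per exon length, a rough measure between genes, single genes of both classes were among the most abundant kinesins. In the libraries labelled -/- the order per kilobase began with Kif5c (65.1 ± 18.1, SD, n = 3), Kif21a (60.0 ± 6.27), Kif1a (42.0 ± 6.32), Kif1b (39.4 ± 2.19) and Kif20a (32.2 ± 3.42). In the flox/flox libraries it began with Kif1a (35.9 ± 2.49), Kif20a (34.0 ± 0.583), Kif5c (32.3 ± 8.03), Kif1b (29.5 ± 2.70) and Kif5b (25.0 ± 0.967). Kif5c and Kif21a at the head of the first order did not differ beyond their spread, nor did the first 3 of the second.

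**Figure D5:**
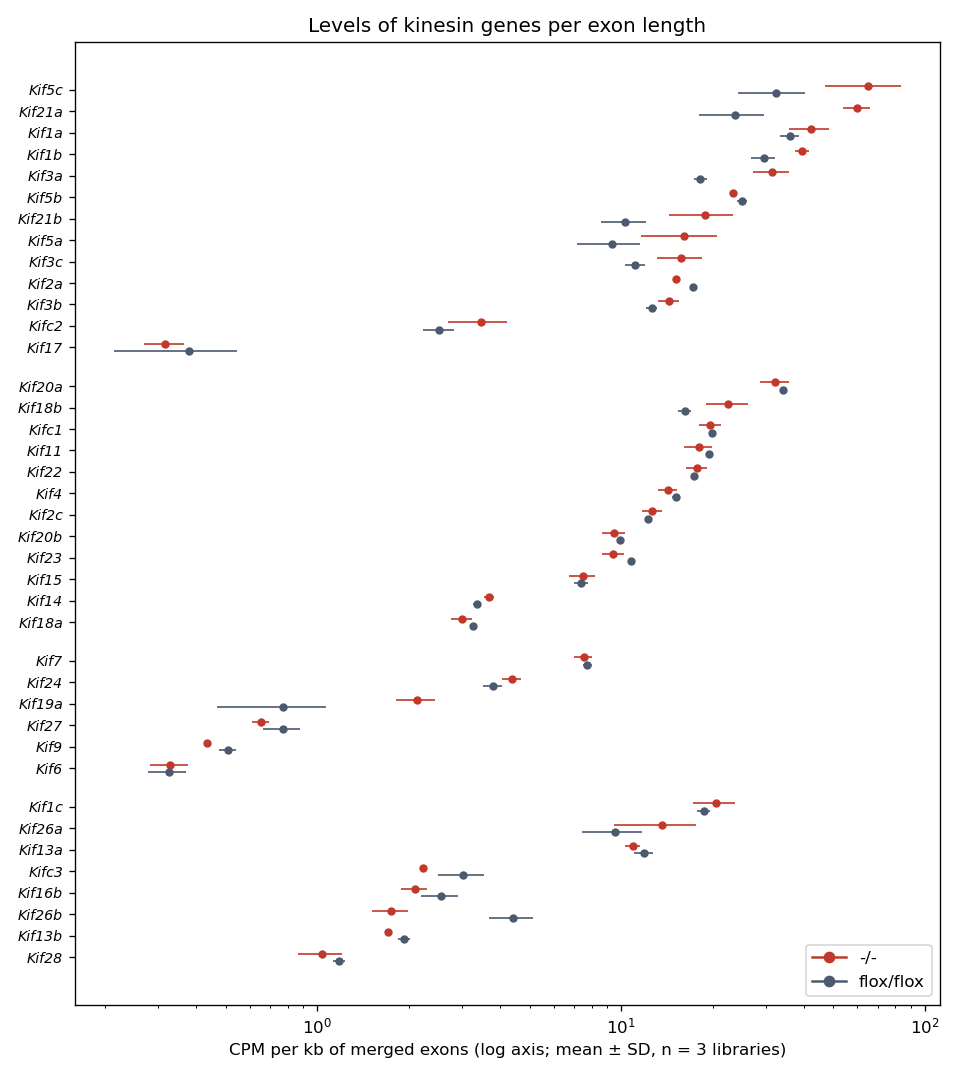
Mean level of the tested motor genes in CPM per kilobase of merged exons on a log axis, with SD over n = 3 libraries, for libraries labelled -/- and flox/flox libraries. From top to bottom the classes are neuronal transport, spindle and cytokinesis, cilia and centrioles, and other kinesins, each sorted by its level in the libraries labelled -/-. Kif5c leads at 65.1 ± 18.1 in the libraries labelled -/- and has 32.3 ± 8.03 in the flox/flox libraries.

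Kinesins of cilia and centrioles rose in 1 of 6 members and fell in 0, where 17.9% of all genes tested were called higher and 17.4% lower. The 1 call does not set the class apart from other genes. Kif19a, a depolymerase that sets the length of motile cilia, measured 8.03, 7.83 and 10.1 CPM in -/- libraries A to C and 1.82, 3.30 and 4.26 CPM in flox/flox libraries A to C. The groups did not overlap, and the flox/flox libraries spread more than the others in proportion. Kif19a rose 2.78-fold (1.47 ± 0.28, log2, SE; adjusted p = 0.00625, edgeR). It lies on chromosome 11 and still rose against the offset (0.96, adjusted p = 0.0351, the highest over its alternatives). Kif7, the ciliary regulator of Hedgehog signalling, was at 32.1 to 36.8 CPM in the libraries labelled -/- and 34.1 to 36.3 CPM in the flox/flox libraries (-0.04 ± 0.07, log2, SE; adjusted p = 0.698, edgeR). Exons of other genes cover 20.3% of the exonic bases of Kif7. Kif24, which acts at the mother centriole, had a log2 difference of 0.21 and did not pass (adjusted p = 0.0872, edgeR), though it did without -/- C (0.0425) or flox/flox C (0.0499), with 0.251 as its highest value. Kif6, Kif9 and Kif27, of motile cilia, were at most 4.46 CPM in any library and did not pass.

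Other kinesins held the largest fall. Kif26b, an atypical kinesin that takes part in Wnt5a-Ror signalling and in kidney development, fell 2.51-fold. Its promoter is shown beside those above because it holds TTTGAA at -9 and CCAAT in reverse at -73. TTTGAA or TTCGAA was in 10 of the 12 spindle promoters, 0 of the 9 neuronal ones and 19.2% of all promoters. It was also in 2 of the 5 promoters of cilia and centriole kinesins. Of the 6 promoters of other kinesins 1 held it, that of Kif26b. CCAAT was in 37.4% of all promoters. Any link of these letters to the fall was not tested.
Kif26b, chr1:178528875-178529174, plus strand: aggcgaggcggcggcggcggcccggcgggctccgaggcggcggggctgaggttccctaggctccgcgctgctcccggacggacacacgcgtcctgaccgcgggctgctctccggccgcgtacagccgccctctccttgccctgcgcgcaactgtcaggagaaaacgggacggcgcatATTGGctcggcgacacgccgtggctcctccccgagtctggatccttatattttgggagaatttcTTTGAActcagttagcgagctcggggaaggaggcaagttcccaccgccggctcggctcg
Kif26b (ENSMUSG00000026494) measured 25.1, 22.6 and 29.6 CPM in -/- libraries A to C, against 75.3, 54.3 and 64.5 CPM in flox/flox libraries A to C. The groups were far apart. Its log2 fold change was -1.33 ± 0.14 (SE), with an adjusted p of 0.000734 in edgeR and of at most 0.00529 under every alternative run.

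Kifc3, a minus-end motor at adherens junctions, measured 11.5, 11.8 and 12.1 CPM in -/- libraries A to C and 19.1, 15.2 and 13.8 CPM in flox/flox libraries A to C. The groups did not overlap, and flox/flox A stood above the other controls. It fell 1.36-fold (-0.44 ± 0.13, log2, SE; adjusted p = 0.0343, edgeR). The call was lost without any single library but flox/flox C (0.0604 to 0.104, and -0.29 without flox/flox A), and its lowest adjusted p was 0.0143. Of its exonic bases 27.5% overlap exons of other genes, so the count may hold reads of those or lack some of its own. Kif26a, the paralog of Kif26b, had 71.8 to 126 CPM in the libraries labelled -/- and 56.8 to 83.3 CPM in the flox/flox libraries, and did not pass (0.50 ± 0.23, log2, SE; adjusted p = 0.127, edgeR, 0.0484 without flox/flox C, and 0.00127 to 0.322 over the alternatives). Kif1c, on chromosome 11, was at 123 to 168 CPM in the libraries labelled -/- and 129 to 139.8 CPM in the flox/flox libraries. Its log2 difference of 0.13 did not pass (adjusted p = 0.396, edgeR), and against the chromosome offset it fell by 0.38 (adjusted p = 0.0353), while without -/- C it rose by 0.26 (0.0209), within a range of 0.0209 to 0.796 over the alternatives. Kif13a, Kif13b, Kif16b and Kif28 had log2 differences from -0.28 to -0.12 and did not pass. Kif12 had 15 reads over the 6 libraries and was not tested.

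Kif1bp, whose product binds kinesins and restrains their hold on microtubules, rose. It measured 65.8, 68.2 and 72.3 CPM in -/- libraries A to C and 53.3, 53.1 and 54.2 CPM in flox/flox libraries A to C. The flox/flox libraries were nearly level and all below the others. The rise was 0.36 ± 0.06 (log2, SE; adjusted p = 0.00329, edgeR, and at most 0.0210 under every alternative run).

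Adaptors link kinesins to their cargo. Of 19 listed cargo adaptors, 10 rose and 2 fell, with a median log2 fold change of 0.33, where 17.9% of all genes tested were called higher and 17.4% lower. Hap1, an adaptor of huntingtin that lies on chromosome 11, rose 2.20-fold, Fez1, an adaptor of Kif5 heavy chains, 5.65-fold and Rhot1, a mitochondrial anchor also on chromosome 11, 1.399-fold (adjusted p 0.000497 to 0.00142, edgeR). The falls were Trak1, a mitochondrial adaptor, at 75.7 ± 3.98 CPM in the libraries labelled -/- against 122 ± 5.89 CPM in the flox/flox libraries, and Mapk8ip1, a scaffold of the JNK pathway, at 163 ± 12.1 CPM in the libraries labelled -/- and 207 ± 5.56 CPM in the flox/flox libraries (SD, n = 3). With the chromosome offset 9 of the 19 rose and 2 fell, against 14.3% and 18.3% of all genes. Of 5 light chain and subunit genes, Klc4 rose, by 0.33 ± 0.11 (log2, SE; adjusted p = 0.0447, edgeR), and limma-voom called none of the 5. Among 20 tested genes of dynein and dynactin, the motor that runs the other way, 5 rose and 1 fell, against the same 17.9% and 17.4%. The 3 rises with the smallest adjusted p, Ndel1, Dynll2 and Pafah1b1 (0.71, 0.66 and 0.57, log2), all lie on chromosome 11, and with the offset 2 of the 20 rose, against 14.3% of all genes. The fall was that of the light chain gene Dynll1 (-0.43 ± 0.05, log2, SE; adjusted p = 0.00128, edgeR).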

How the data were processed

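RNA was sequenced from 6 libraries, 3 labelled -/- for Dmrta2 and 3 labelled flox/flox. The authors deposited a table of raw counts, 1 row for each Ensembl gene. Alignment with BWA 0.5.9 to mm10 (GRCm38) and counting with featureCounts 1.4.6 are named in the submitters' processing notes. Which annotation release and strand setting were used, and how reads with several hits were counted, is not given in the sources used here. Genes that overlap, and near-identical copies, can therefore share or lose reads. The columns name the genotype and a letter, while the labels number the replicates, so libraries are named by genotype and letter. Nothing ties them to separate differentiations, and p-values measure the spread between these libraries.

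Symbols, positions and merged exon lengths came from GENCODE M21 by gene identifier. The test was edgeR's two-sided quasi-likelihood test on the deposited counts (edgeR 4.0.16 in R 4.3.3, functions glmQLFit and glmQLFTest, with group as the only term, TMM scaling, filterByExpr with a minimum count of 10 and a minimum total count of 15). Benjamini-Hochberg adjustment ran over all 20549 genes tested, with a threshold of 0.05. The procedure was checked on simulated counts. Levels are TMM-normalised CPM (counts scaled to 1000000 per library). The standard error (SE) is the absolute log2 fold change divided by the square root of the F statistic, and 95% intervals use its t distribution. The alternatives were other scalings and filters, DESeq2 1.42.0, limma-voom (limma 3.58.1), the column letter as a block, an offset for chromosome 11, each library left out and a threshold of 0.01. The members, role classes and lists were chosen with earlier results of these data known. Values in every library are given for 8 kinesin genes chosen as examples and for up to 4 members per role class and direction with the smallest adjusted p past the threshold, and partner lists are represented by up to 3 genes per direction. Promoter windows are RefSeq's on GRCm38.p6, and 33 of the 42 members matched one.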

Additional observations from a re-analysis of the deposited data

How the results depend on the processing

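The signs and calls of the 40 kinesin genes were the same as reported with DESeq2 size factors, upper-quartile scaling in edgeR, a minimum of 1 CPM in 3 or more libraries, the DESeq2 Wald test and limma-voom. With no low-count filter Kif2a lost its call, so that 0 neuronal members fell. At a threshold of 0.01, 6 kinesin genes rose and 1 fell, with 0 rises in the spindle class and 4 rises and 0 falls in the neuronal class. With the chromosome 11 offset 0 spindle members rose, and the log2 values of Kif1c and Kif18b became -0.38 and -0.0357. A replicate block by column letter gave 5 kinesin genes that fell and 12 that rose, against 20.3% and 21.2% of all genes. The calls it added were the falls of Kif23 (adjusted p = 0.0382, edgeR), 1 fall in the spindle class, and Kif16b (0.0331), and the rises of Kif26a (0.00127) and Kifc2 (0.0138). The letters were not taken to pair the libraries: the correlation of deviations between libraries of the same letter was 0.265, 0.0961 and 0.256 for A, B and C, though each library correlated best with its own letter. Leaving out 1 library at a time gave 6 to 12 rises and 1 to 2 falls, 0 to 1 and 0 to 1 in the spindle class, 4 to 8 and 0 to 1 in the neuronal class, and class medians of -0.0712 to 0.0333 (spindle, the highest without -/- C) and 0.36 to 0.59 (neuronal). Over all genes tested these fits called 11.1% to 16.7% higher and 11.2% to 15.9% lower, against 17.9% and 17.4% with all libraries. The lowest number of kinesin rises, 6, came without flox/flox B, where the share of all genes called higher was also lowest, at 11.1%. The cause was not tested. Genes near 0 changed sign when 1 library was left out. Without -/- C the highest values were reached by Kif20a (range -0.142 to 0.0128), Kif20b (-0.109 to 0.0093), Kifc1 (-0.0646 to 0.0537) and Kif7 (-0.0870 to 0.0173). Kif2c (-0.0069 to 0.111) and Kif15 (-0.0246 to 0.110) turned negative without -/- A, Kif6 (-0.0798 to 0.136) without -/- A, -/- B or flox/flox C, and Kif17 (-0.480 to 0.143) turned positive without flox/flox A. Depth limits Kif6, Kif9, Kif17, Kif27 and Kif28, which were under 5 CPM in every library.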
